A study of Homo sapiens with 27 samples.

Results

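The mitochondrial ribosomal protein genes are the nuclear genes whose symbols begin with MRPL or MRPS followed by a digit, without readthrough names. By that rule there were 78 of them among the 21487 genes of the count table, 49 named MRPL and 29 named MRPS. By function 51 belong to the large subunit and 26 to the small subunit, since MRPS30 and MRPS18A sit in the large subunit despite their names. MRPS36 was kept under the naming rule, although its product is now regarded as a part of the 2-oxoglutarate dehydrogenase complex. The subunits were classed as 46 with a bacterial homolog and 31 mitochondria-specific. MRPS18A and MRPS18B are in the second class, although they are paralogs of the bS18 family. GENCODE v29 (GRCh38) lists all 78 as protein coding, on 21 chromosomes.

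Mitochondrial ribosomes translate the few mRNAs that the mitochondrial genome keeps, all of which encode membrane subunits of the respiratory chain and ATP synthase. Their ribosomal RNAs are made inside the organelle, whereas every protein subunit is encoded in the nucleus, made in the cytosol and imported. Production of these subunits therefore has to be matched between both genomes, and promoters of such nuclear genes are known for sites of ETS-family factors (such as GABP) and of NRF1.

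The cells were Panc1, an established human pancreatic cancer line, as the parental line and as ARNT KO Clone A and ARNT KO Clone B. ARNT is the obligate partner of the HIF alpha subunits in hypoxia-dependent transcription. Each clone is a single CRISPR-Cas9 clone, so the effect of losing ARNT and other differences of that clone from the parental cells cannot be told apart within a clone. All 3 genotypes were kept for 48 h in regular medium (DMEM with FBS and P/S) at 20% O2 (normoxia), in the same medium at 1% O2 (hypoxia), or at 1% O2 in TIFM, a medium modelled on tumor interstitial fluid. Each of the 9 groups had 3 replicates, giving 27 polyA RNA libraries. Nothing in the labels says whether replicates came from separate cultures, so p-values measure the spread between these libraries, which may be technical. TIFM was used only in hypoxia, and its effect is compared with hypoxia in regular medium.

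Library totals ranged from 26057022 to 38341713 counts. ARNT mRNA was not lost in the clones: it was 71.2 ± 3.62 CPM in parental normoxia, 75.5 ± 2.19 in clone A and 63.9 ± 1.44 in clone B (SD, n = 3 each), so transcript level does not check the knockout. CPM is edgeR's normalised read count, each library being scaled to one common size after TMM correction (trimmed mean of M values). NDRG1, a hypoxia-induced gene, rose by 3.67 (log2) in parental hypoxia; its rise was 1.22 for clone A and 1.15 for clone B. The epithelial keratins KRT8, KRT18 and KRT19 were present in every library, while CD3E, INS and PRSS1 stayed at or below 0.148 CPM. PTPRC and PECAM1 reached at most 0.839 and 1.21 CPM and ALB 8.66 CPM, and the macrophage marker CD68 read 76.6 to 296 CPM; its part in the results was not tested. Variation between replicates was widest in clone A in TIFM, where the biological coefficient of variation was 29.3%, against 4.52% to 17.4% in the other 8 groups.

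Promoter sequences of a few members are shown for context. RefSeq (GRCh38.p14) gave the 250 bases before the gene start for 69 of the 78 genes. The ETS core CCGGAA, searched on both strands, was found in 44.9% of them and in 19.5% of 15307 protein-coding genes of the count table. For the NRF1 core TGCGCA (its own reverse complement) the shares were 18.8% and 9.15%. The E-box CACGTG occurred in 8.7% against 7.85%, and a HIF core (ACGTG or GCGTG, either strand, of which ACGTG is also part of every E-box) in 60.9% against 50.7%. On GENCODE v29 only 7 of the 69 member windows hold no exon base, so these shares are not of upstream sequence alone. Some windows, such as those of MRPL32 and MRPL43, are exonic in all 250 bases. Exon bases in the windows of the other genes were not counted. A match is a description of the letters, not a bound site. Shown first are 2 whole windows of members whose response to TIFM differed most between clone A and parental cells, in which capitals mark the ETS core on either strand. Neither window holds an exon base on GENCODE v29. MRPL58 lies at chr17:75012420-75012669 (plus strand) and MRPS18A at chr6:43687792-43688041 (minus strand); the windows have 2 matches each, and those of MRPS18A overlap in a single palindromic run.
MRPL58: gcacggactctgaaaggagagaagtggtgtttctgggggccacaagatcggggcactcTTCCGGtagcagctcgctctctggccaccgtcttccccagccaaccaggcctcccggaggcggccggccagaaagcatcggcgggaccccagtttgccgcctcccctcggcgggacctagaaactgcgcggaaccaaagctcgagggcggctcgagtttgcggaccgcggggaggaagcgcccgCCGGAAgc
MRPS18A: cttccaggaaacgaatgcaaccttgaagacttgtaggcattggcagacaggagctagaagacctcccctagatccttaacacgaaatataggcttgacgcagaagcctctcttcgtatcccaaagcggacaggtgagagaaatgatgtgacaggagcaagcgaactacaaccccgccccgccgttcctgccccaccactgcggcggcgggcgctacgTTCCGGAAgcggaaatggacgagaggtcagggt

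For 4 other members that the results turn on, only a 30-base stretch around 1 motif is given. MRPS10 (chr6:42217931-42217960, minus strand) and MRPL24 (chr1:156741248-156741277, minus strand) carry the ETS core, 87 and 177 bases before the start. MRPS35 (chr12:27710699-27710728, plus strand) and MRPS6 (chr21:34073518-34073547, plus strand) carry the NRF1 core, 121 and 48 bases before it. On GENCODE v29 the MRPS10 stretch holds no exon base, those of MRPL24 and MRPS35 are exonic in all 30 bases and that of MRPS6 in 25, and the MRPL24 and MRPS6 stretches lie inside the annotated gene. Capitals mark the motif.
MRPS10: gttgttccagcgCCGGAAcatgaggatgta
MRPL24: cttcatggtgtgTTCCGGtttccttgattt
MRPS35: ctcggctctgagTGCGCAgaccaacgtgtt
MRPS6: tggcgcggcgtcTGCGCAgctgccagcgcc

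Of the 78 genes, 64 passed the filter on low counts and were tested, each with at least 1446 counts over all libraries. The other 14 were MRPL2, MRPL12, MRPL30, MRPL34, MRPL38, MRPL40, MRPL46, MRPL49, MRPL53, MRPS11, MRPS12, MRPS17, MRPS24 and MRPS28. Among these 12 are listed at 0 in all 27 libraries, MRPL46 had 3 counts and MRPS28 had 2. They include MRPL12, the stalk protein, and MRPS12, the decoding-centre protein, which a working mitochondrial ribosome needs. A listing of 0 is therefore not read here as absence of the mRNA: 5 of 81 genes of cytosolic ribosomal proteins, RPS10, RPL32, RPL15, RPL35A and RPS4X, are listed at 0 as well. Of all 21487 genes counted, 3417 are listed at 0 in all 27 libraries, beside 12 of the 78 members. Such listings are therefore not read as a trait of this set. On GENCODE v29, 13 of the 14 untested genes share exon bases with another gene (all but MRPL40). The same holds for 28 of the 64 tested genes. Whether the counting of shared bases set these zeros was not tested.

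Levels compared per kilobase of exon in parental normoxia were highest for MRPL3, at 85.9 CPM per kb, followed by MRPL15 at 73.5, MRPS35 at 67 and MRPS10 at 64.7. MRPL3 encodes a protein of the large-subunit core and MRPS10 a small-subunit head protein, both with bacterial homologs. The summed level of all 78 genes was 3375 ± 138 CPM in parental normoxia, 2953 ± 102 in hypoxia and 3415 ± 282 in TIFM (SD, n = 3 each). The 14 untested genes add almost nothing to these sums, which rest on the 64 tested genes and may understate the set. The same holds for the subunit sums and for shares of all counts given below. In clone A these sums were 3893 ± 43.6, 3299 ± 218 and 5868 ± 698 CPM. Clone B gave 3641 ± 60.3, 3352 ± 94.9 and 3817 ± 155 CPM. In each genotype the 3 hypoxia libraries lay below the 3 normoxia libraries, and the 3 clone A TIFM libraries lay above all 24 others, at 5140, 5931 and 6532 CPM. Large-subunit genes summed to 1940 CPM in parental normoxia and 1541 in hypoxia, and small-subunit genes to 1407 and 1386. Without MRPS6, a gene singled out after its values were seen, the small-subunit sums were 1319 and 1081 CPM. In bulk RNA of this kind, fewer cells expressing a gene and less RNA per cell cannot be told apart.

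**Figure D1:**
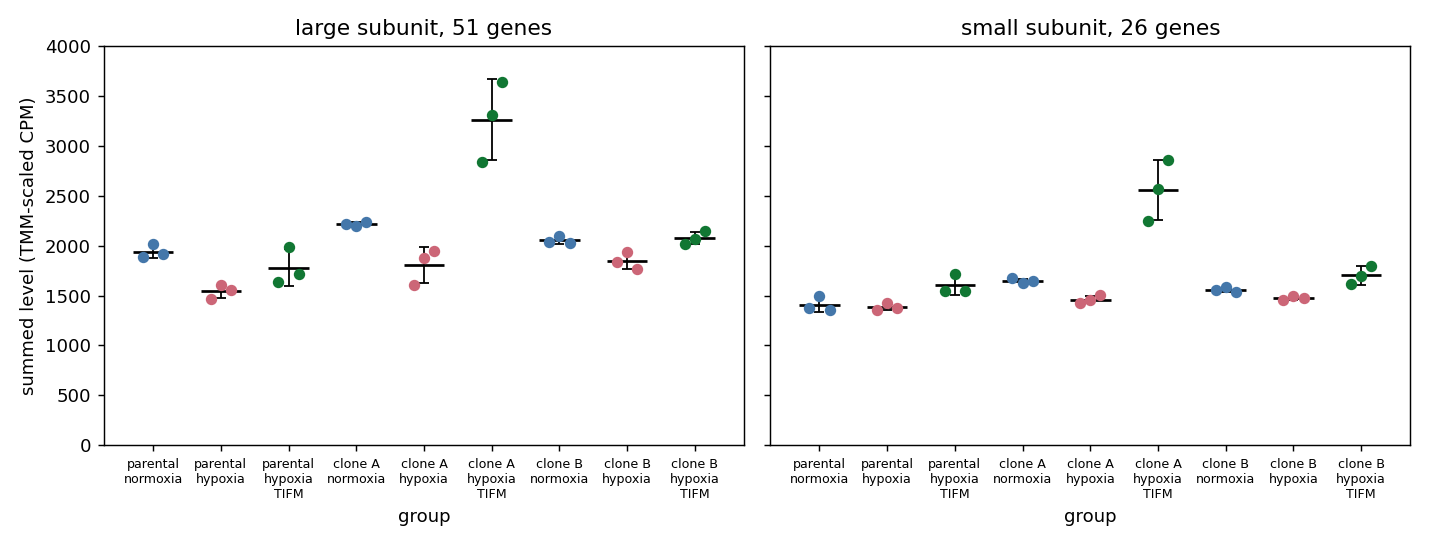
Summed level in TMM-scaled CPM of the 51 large-subunit genes (left) and the 26 small-subunit genes (right) in each library; points are libraries (blue normoxia, red hypoxia, green hypoxia in TIFM), the horizontal line is the group mean and the bar its SD (n = 3). The clone A TIFM libraries stand above all others in both panels, with means of 3262 and 2557 CPM.

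The first comparison asks how mitochondrial ribosomal protein mRNAs respond to hypoxia in parental cells. Of the 64 tested members 24 fell, 1 (MRPS6) rose and 39 were not called at an adjusted p under 0.05 (edgeR quasi-likelihood test, Benjamini-Hochberg adjustment over 13943 genes). In the same comparison 30.2% of all genes tested were called, 14.9% as lower and 15.4% as higher. The member median was -0.32 (log2) against 0 over all genes, and 61 of 64 estimates lay below 0. The libraries of both conditions did not overlap for 48 members, which was so for 56.7% of all genes. Falls were called in 16 of 42 tested large-subunit genes and 8 of 21 small-subunit genes. By origin they were called in 14 of 37 genes classed with a bacterial homolog and 10 of 26 classed as mitochondria-specific. No fall reached 2-fold.

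MRPS10, a protein of the small-subunit head, showed the largest fall. It read 134, 138 and 138 CPM in parental normoxia and 72.8, 73.1 and 80.6 in hypoxia. The groups did not overlap, and the change was -0.85 ± 0.11 (log2 ± SE, adjusted p = 9.5e-07). MRPL58, a peptidyl-tRNA hydrolase built into the large subunit, read 31.9, 35 and 35.7 CPM in normoxia and 19.5, 23.1 and 19.9 in hypoxia, a change of -0.72 ± 0.14 (adjusted p = 0.000273). All of its hypoxia libraries were below all normoxia libraries. MRPL1, a large-subunit protein with a bacterial homolog, fell by 0.74 and MRPL54, found only in mitochondria, by 0.73, with adjusted p of 0.0309 and 0.0129. The call of MRPL1 was lost when any of 5 libraries was left out. MRPL27, MRPL9 and MRPL20, all with bacterial homologs, fell by 0.68, 0.67 and 0.62. MRPS30, which sits in the large subunit, fell by 0.57 and MRPL18, with a bacterial homolog, by 0.55. MRPL9 shares 38.5% of its exon bases with neighbours, among them OAZ3 on the opposite strand.

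MRPS6 encodes a small-subunit platform protein and went the other way. Its level was 85, 92.3 and 83.8 CPM in parental normoxia and 319, 325 and 271 CPM in hypoxia, without overlap, a rise of 1.81 ± 0.32 (log2, adjusted p = 0.000139). MRPS6 shares 9.61% of its exon bases with SLC5A3 and AP000317.2 on the same strand. SLC5A3, the myo-inositol transporter gene inside the MRPS6 locus, is listed at 0 in all 27 libraries. Whether its reads enter the MRPS6 count was not tested. Genes with little difference included MRPL45, which binds the ribosome to the inner membrane (0.02 ± 0.13), and MRPS5 at the mRNA entrance (-0.02 ± 0.09). Without parental hypoxia replicate 1, which was the lowest of its group for 48 of 64 members, 16 members were called; fitted on the parental libraries of both conditions alone, 45 were, while calls over all genes went from 4212 to 6804.

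Hypoxia in clone A, which carries the ARNT knockout, gave a similar count, with 28 members lower and 1 higher. Here 22.2% of all genes were called, 11.8% as lower. The member median was -0.29 against -0.01 over all genes, the libraries did not overlap for 51 members (49.9% of all genes), and 20 of 42 large-subunit and 8 of 21 small-subunit genes fell. MRPL24, a protein next to the exit tunnel, read 56.2, 55.7 and 54.3 CPM in normoxia and 21.9, 32.6 and 33.3 in hypoxia. Its groups did not overlap and it fell by 0.92 ± 0.17 (adjusted p = 0.000543). MRPL1 fell by 0.9, MRPS10 by 0.74, and MRPL9 and MRPL17 by 0.73 each. MRPS6 read 59, 62.8 and 61.9 CPM in normoxia and 268, 122 and 152 in hypoxia, with no overlap, a rise of 1.56 ± 0.32 (adjusted p = 0.00132). The first of these hypoxia libraries stood apart for many members: it was the lowest of its group for 45 of 64 and the highest for MRPS6. Leaving it out left 16 members called, and leaving out clone A normoxia replicate 2 or 3 left 17 each.

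In clone B hypoxia, 5 members were called lower and none higher, against 9.3% of all genes called, 4.84% as lower and 4.46% as higher. The member median was -0.18, and 16 members had an unadjusted p under 0.05 on the lower side. MRPL9 read 49.6, 51 and 46.5 CPM in normoxia and 35.5, 35.9 and 30.6 in hypoxia. Those groups did not overlap, and it fell by 0.53 ± 0.11 (adjusted p = 0.00427). The others were MRPL24 at -0.54, MRPS30 at -0.49, MRPS10 at -0.36 and MRPL18 at -0.31. These 5 were called lower in all 3 genotypes, and they made up 20.8% of the parental list, 17.9% of the clone A list and 100% of the clone B list. Parental cells and clone A shared 19 lower calls, 79.2% and 67.9% of their lists. Shared calls were not counted over all genes, so these overlaps are not read as a trait of the set. MRPS6 read 93.1, 97 and 93.9 CPM in clone B normoxia and 121, 161 and 225 in hypoxia; this difference of 0.83 ± 0.32 did not pass (adjusted p = 0.0985). The clone B count is fragile: leaving out single libraries gave 1 call (without clone B hypoxia replicate 3), 2 calls (without hypoxia replicate 1 or any normoxia replicate) or 5, and only MRPL9 kept its call in every such fit. Fitted on the clone B libraries of both conditions alone, 22 members were lower and 3 higher, while calls over all genes went from 1297 to 4242.

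A test of the difference between genotypes called no member for its hypoxia response in a clone against the parental response. For clone A, 0 of 64 members were called by edgeR, with 2 at an unadjusted p under 0.05, and 6.23% of all genes were called. Of these differences 38 lay above 0 and 26 below. For clone B, 0 were called with 8 at an unadjusted p under 0.05, 7 of them higher, and 4.73% of all genes were called. After rounding, 53 clone B differences lay above 0 and 10 below. DESeq2 called 2 in clone B. MRPS10 came closest, falling less in clone B than in parental cells by 0.5 ± 0.15 (adjusted p = 0.0518). For MRPS6 the difference was -0.25 ± 0.45 in clone A and -0.98 ± 0.45 in clone B (adjusted p = 0.828 and 0.265). Between the clones, in a comparison added after the data were seen, 0 members and 0% of all genes were called. There 6 members had an unadjusted p under 0.05, all with the lower response in clone A. Of the differences between the clones 53 lay below 0 and 11 above. The absence of calls does not show that the responses were equal.

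**Figure D2:**
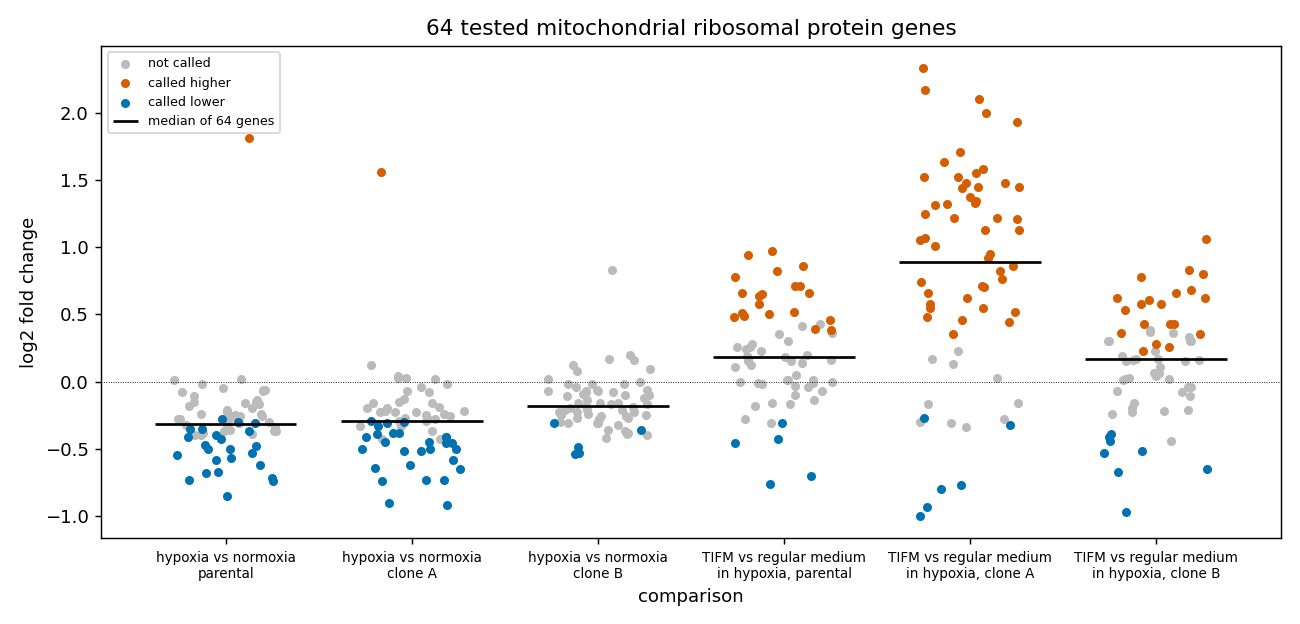
Log2 fold change of each of the 64 tested members in hypoxia against normoxia (left 3 columns) and in TIFM against regular medium within hypoxia (right 3 columns) for each genotype; orange and blue points were called higher or lower at an adjusted p under 0.05, grey points were not called, and black lines are medians. The hypoxia medians are -0.32, -0.29 and -0.18, and the TIFM medians 0.18, 0.89 and 0.16.

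The second question is what the medium does at low oxygen. In parental cells TIFM raised 20 members and lowered 5, where 42.2% of all genes tested were called, 21.8% as higher and 20.4% as lower. The member median was 0.18 against 0 over all genes, and the libraries did not overlap for 33 members (57.9% of all genes). Rises were called in 14 of 42 large-subunit and 6 of 21 small-subunit genes. By origin they were called in 15 of 37 members classed with a bacterial homolog and 5 of 26 classed as mitochondria-specific. MRPS35, a small-subunit protein found only in mitochondria, read 107, 110 and 104 CPM in hypoxia and 202, 221 and 192 in TIFM. The libraries did not overlap, and the rise was 0.94 ± 0.09 (adjusted p = 1.24e-08). MRPL21, a large-subunit protein, read 22.2, 25.6 and 27.2 CPM in hypoxia and 41.3, 57.5 and 48.1 in TIFM, a rise of 0.97 ± 0.17 (adjusted p = 5.25e-05) with no overlap. MRPL24 rose by 0.86, MRPL36 by 0.82, MRPL15 by 0.78 and MRPL10, at the base of the stalk, by 0.71.

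A smaller set fell in TIFM. MRPS15, an rRNA-binding protein of the small subunit, read 58.3, 62.6 and 58.9 CPM in parental hypoxia and 31.6, 38.2 and 36.8 in TIFM, a change of -0.76 ± 0.12 (adjusted p = 2.51e-05). Every TIFM library was below every hypoxia library. MRPL35 fell by 0.7, MRPL3 by 0.46, MRPL39 by 0.43 and MRPS9 by 0.31. MRPL3 read 179, 185 and 185 CPM in hypoxia and 130, 138 and 133 in TIFM, so the member with the highest level per kilobase in normoxia was among those that fell. Parental TIFM replicate 2 was the highest of its group for 52 of 64 members, and without it 15 members rose and 5 fell.

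In clone A the response to TIFM was larger and covered more of the set: 48 members rose and 6 fell, where 67.2% of all genes were called, 33% as higher and 34.2% as lower. The member median was 0.89 against -0.03 over all genes, 30 of the rises were at least 2-fold, and 32 of 42 large-subunit and 15 of 21 small-subunit genes rose. MRPL24 read 21.9, 32.6 and 33.3 CPM in clone A hypoxia and 102, 162 and 178 in TIFM, without overlap, a rise of 2.33 ± 0.18 (adjusted p = 2.05e-11). MRPL58 read 24, 27.4 and 31.1 CPM in hypoxia and 89.8, 134 and 147 in TIFM, a rise of 2.17 ± 0.14 (adjusted p = 1.17e-12). Even its lowest TIFM library was above all hypoxia libraries of that clone. MRPL21 rose by 2.1, MRPL36 by 2 and MRPL10 by 1.93. The members that fell were MRPL35 (-1), MRPS15 (-0.93), MRPL39 (-0.8), MRPL3 (-0.77), MRPS25 (-0.32) and MRPS27 (-0.27). As a share of all counts, before any scaling factor, the 78 genes took 0.458%, 0.494% and 0.508% in the clone A TIFM libraries. In clone A hypoxia they took 0.323%, 0.347% and 0.35%. TMM factors were 1.056, 1.031 and 1.008 in clone A hypoxia and 0.89, 0.833 and 0.777 in clone A TIFM. The log2 rises and the count of 2-fold rises above include this scaling of the clone A TIFM libraries. Replicates varied most in this group, with the coefficient of variation of 29.3% given above, and its replicate 1 was the lowest of the group for 41 of 64 members; the count stayed between 52 and 54 when single libraries were left out.

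In clone B, TIFM raised 20 members and lowered 8, where 53.7% of all genes were called, 25.9% as higher and 27.9% as lower. The member median was 0.16 against -0.03 over all genes, and as a share of all counts the 78 genes took 0.362% to 0.368% in TIFM and 0.347% to 0.372% in hypoxia, which overlap. MRPS35 read 144, 142 and 127 CPM in clone B hypoxia and 288, 280 and 293 in TIFM, with no overlap, a rise of 1.06 ± 0.09 (adjusted p = 7.09e-10). MRPL21 rose by 0.83 and MRPL10 by 0.8. MRPS15 read 66.8, 69.2 and 67.5 CPM in hypoxia and 33.1, 36.4 and 34.5 in TIFM, with the groups apart, and fell by 0.97 ± 0.12 (adjusted p = 4.26e-07). MRPL3, MRPL35, MRPS9 and MRPL39 fell by 0.67, 0.65, 0.53 and 0.52.

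The 3 TIFM comparisons share no libraries, so their lists can be set side by side. MRPL3, MRPL35, MRPL39 and MRPS15 were called lower in all 3 genotypes, which is 80% of the parental list, 66.7% of the clone A list and 50% of the clone B list. In the other direction 14 members were called higher in all 3: MRPL10, MRPL15, MRPL18, MRPL21, MRPL24, MRPL32, MRPL33, MRPL36, MRPL58, MRPS10, MRPS16, MRPS21, MRPS33 and MRPS35. They made up 70% of the parental list, 29.2% of the clone A list and 70% of the clone B list. How many of all genes were called the same way in all 3 genotypes was not counted. These overlaps are therefore not read as a trait of the set. MRPL33 and MRPS16 share 21.1% and 14.9% of their exon bases with neighbours on the same strand, BABAM2 and DNAJC9. In clone A these averaged 30.1 and 55 CPM in hypoxia and 64 and 94.6 CPM in TIFM, and their part in both members' counts was not tested.

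**Figure D3:**
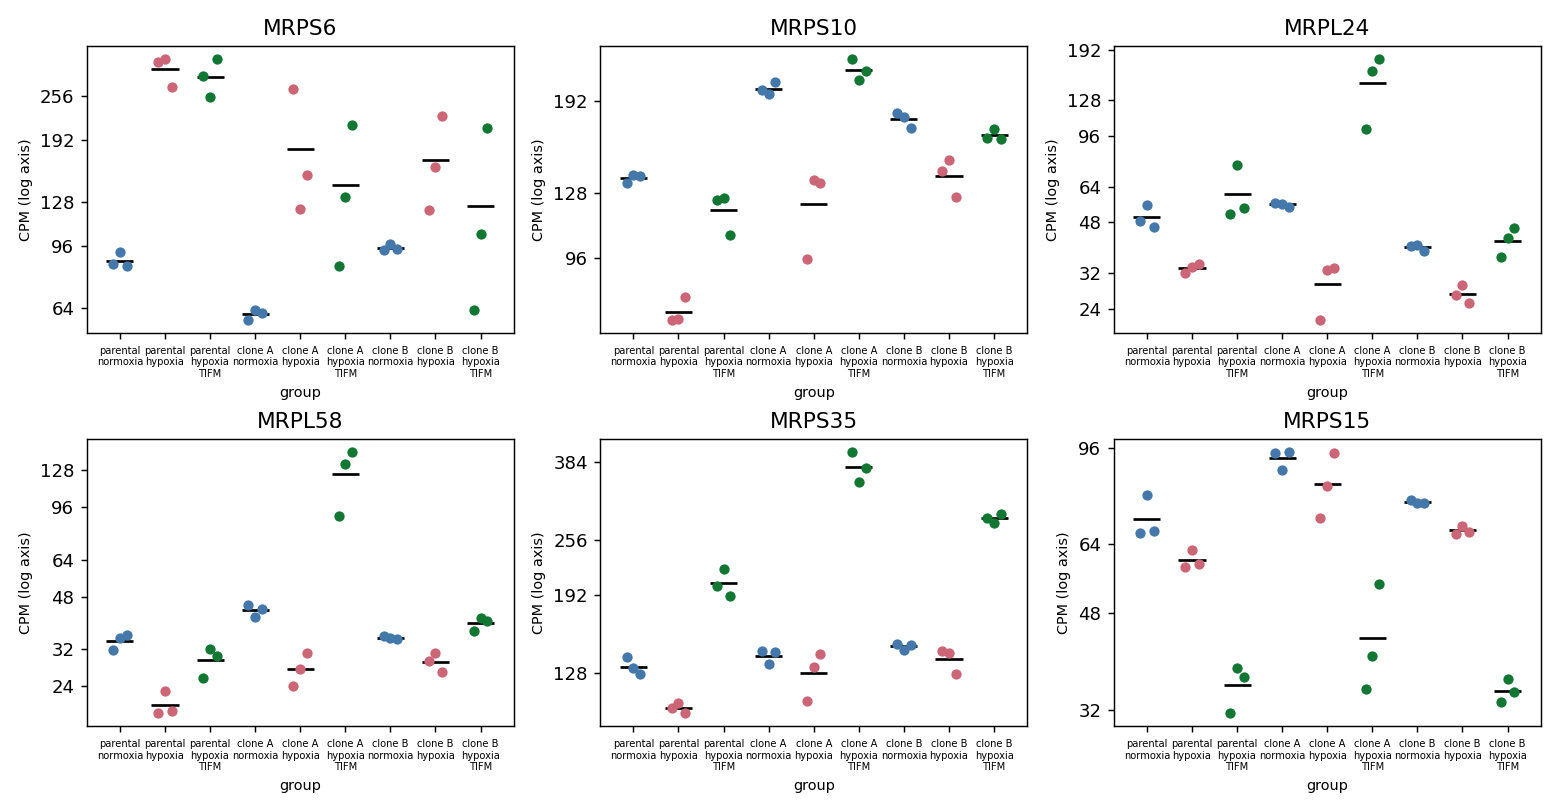
TMM-scaled CPM on a log axis of MRPS6, MRPS10, MRPL24, MRPL58, MRPS35 and MRPS15 in each of the 27 libraries; points are libraries (blue normoxia, red hypoxia, green hypoxia in TIFM) and the line is the group mean. MRPS6 is the gene with hypoxia libraries above normoxia libraries in every genotype, MRPS15 has its TIFM libraries lowest in every genotype, and MRPL58 reaches 147 CPM in clone A in TIFM.

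The TIFM response itself was then compared between genotypes. In clone A 39 members responded more positively than in parental cells and none less, where 38.9% of all genes were called, 19.3% in that direction. The median difference over the members was 0.58, against -0.03 over all genes. MRPS18A, the paralog of the bS18 family that sits in the large subunit, read 12.8, 12.9 and 13.1 CPM in parental hypoxia and 11.8, 15.4 and 11.5 in parental TIFM, which overlap. In clone A it read 10.6, 10.7 and 12.4 in hypoxia and 24.3, 42.4 and 43.7 in TIFM, which do not. The difference of responses was 1.71 ± 0.23 (adjusted p = 2.58e-06). MRPL58 differed by 1.67 ± 0.19 and MRPL24 by 1.48 ± 0.24 (adjusted p = 4.28e-07 and 3.57e-05). MRPS18A shares 47% of its exon bases with RSPH9 on the opposite strand. RSPH9 averaged 1.28 CPM in clone A hypoxia and 5.94 in clone A TIFM; its part in the MRPS18A count was not tested.

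For clone B against parental cells, 0 members were called for the TIFM response, with 3 at an unadjusted p under 0.05; 10.4% of all genes were called by edgeR, and DESeq2 also called 0 members. MRPL58 differed by -0.07 ± 0.19, MRPL24 by -0.24 ± 0.24 and MRPS18A by 0.36 ± 0.23. MRPS10 differed by -0.39 ± 0.15 (adjusted p = 0.0928). Clone A against clone B, added after the data were seen, gave 45 members with the larger response in clone A and none the other way, where 40% of all genes were called, 21.3% in that direction. In that comparison MRPL58 differed by 1.74 ± 0.19, MRPL24 by 1.71 ± 0.24 and MRPS18A by 1.35 ± 0.23. The TIFM response of the set thus differed between the 2 knockout clones, whereas no difference between clone B and parental cells was called.

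**Figure D4:**
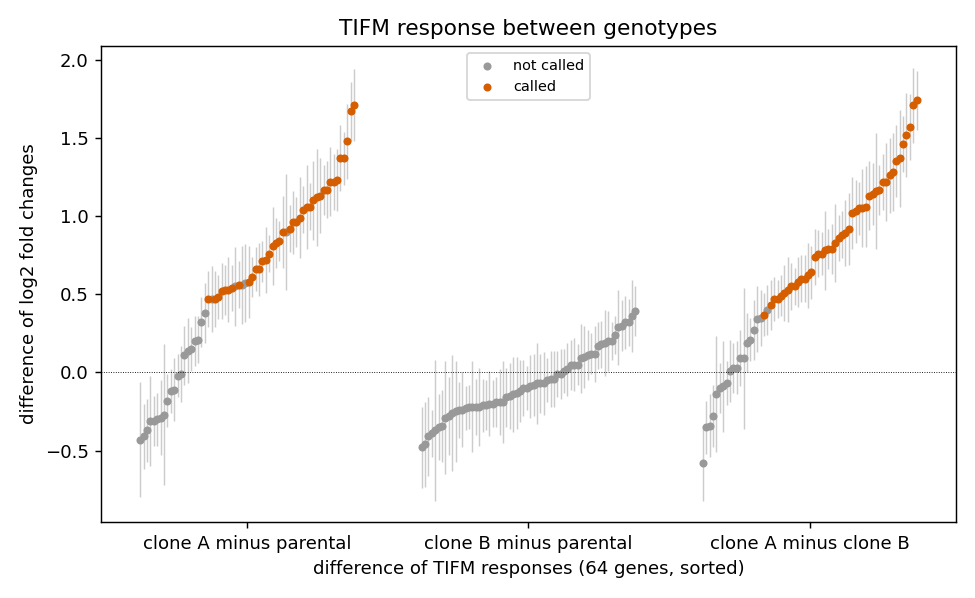
Difference of log2 TIFM responses for the 64 tested members, sorted within each column, for clone A minus parental, clone B minus parental and clone A minus clone B; points are estimates, bars their SE, and orange points were called at an adjusted p under 0.05. The columns hold 39, 0 and 45 called members, all above 0.

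The bS18 paralogs show how much members of 1 family varied. MRPS18B and MRPS18C, both in the small subunit, changed in clone A TIFM by 1.63 and 0.76, against 1.71 for MRPS18A. In parental TIFM none of the family was called, with estimates of 0 for MRPS18A, 0.26 for MRPS18B and -0.16 for MRPS18C. MRPS18C fell in parental hypoxia by 0.35 (adjusted p = 0.0124), while MRPS18A and MRPS18B had estimates of -0.07 and -0.14. MRPS18C shares 40.2% of its exon bases with ABRAXAS1 on the opposite strand.

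Clones were also compared with parental cells within each condition; these 6 comparisons share the parental libraries, so each is given by itself. In normoxia clone A had 17 members higher and 0 lower, where 31.6% of all genes were called, 15.9% as higher. MRPS10 read 201, 198 and 209 CPM in clone A against 134, 138 and 138 in parental cells, without overlap, higher by 0.57 ± 0.1 (adjusted p = 0.000117). MRPS31, a small-subunit protein found only in mitochondria, was higher by 0.56 and MRPL10 by 0.46. This count was sensitive to single libraries, since leaving out each of the 6 in turn gave 4 (without parental normoxia replicate 1), 6, 7, 8, 9 and 11 calls (without clone A normoxia replicates 3 and 2, parental replicate 3, clone A replicate 1 and parental replicate 2). Fitted on these 6 libraries alone, 28 members were called, while calls over all genes went from 4408 to 6251.

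Clone B in normoxia had 4 members higher and 3 lower, where 26.5% of all genes were called. MRPS10 read 182, 179 and 171 CPM, above all parental libraries, and was higher by 0.38 ± 0.1 (adjusted p = 0.00785). MRPL33 (0.33), MRPS14 (0.3) and MRPS22 (0.24) were the others above. COPB2, which shares exon bases with MRPS22 on the opposite strand, averaged 605 CPM in clone B normoxia and 405 in parental normoxia. Its part in the MRPS22 count was not tested. MRPS34 and MRPL28 were lower, at -0.53 each, as was MRPL32 at -0.42. Leaving out single libraries gave 2 calls (without clone B replicate 1), 3 (without clone B replicate 2 or 3 or parental replicate 1 or 2) or 5, and MRPS10 and MRPL32 kept their calls in each. On these 6 libraries alone 20 members were called, while calls over all genes went from 3697 to 5710.

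In hypoxia clone A had 21 members higher and 1 lower than parental cells, where 41.4% of all genes were called, 20.5% as higher. MRPS10 read 95.2, 136 and 134 CPM in clone A against 72.8, 73.1 and 80.6, with no overlap, higher by 0.69 ± 0.11 (adjusted p = 8.06e-06). MRPS31 was higher by 0.61 and MRPL47 by 0.57, and MRPL17 was the lower one at -0.4. Without clone A hypoxia replicate 3, or without parental hypoxia replicate 1, 11 members were called. Clone B in hypoxia had 19 members higher and 2 lower, where 35.9% of all genes were called, 16.9% as higher. There MRPS10 read 141, 148 and 126 CPM, higher by 0.87 ± 0.11 (adjusted p = 2.64e-07), followed by MRPL47 (0.62) and MRPS23 (0.58). MRPS6 and MRPS34 were lower, at -0.86 and -0.49. The MRPS6 call was lost in DESeq2 and when any of 4 libraries was left out, and without clone B hypoxia replicate 2 the count was 12. On the 6 libraries alone it was 37, while calls over all genes went from 5006 to 7379.

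In TIFM 51 members were higher and 2 lower in clone A than in parental cells, where 61.7% of all genes were called, 30.9% as higher. MRPL58 read 89.8, 134 and 147 CPM in clone A against 25.7, 32.2 and 30.4 in parental cells, higher by 2.07 ± 0.14 (adjusted p = 3.22e-12) with no overlap. MRPL22, at the exit tunnel, and MRPL10 were each higher by 1.56. MRPS6 read 84.1, 132 and 211 CPM against 291, 255 and 326, lower at -1.03 ± 0.32 (adjusted p = 0.00699). Its call was lost without clone A TIFM replicate 1. MRPL1 was lower at -0.62, although its libraries overlapped.

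Clone B in TIFM had 20 members higher and 5 lower, where 47.5% of all genes were called, 22.1% as higher. MRPS18C read 27.9, 29.3 and 27.1 CPM against 14.1, 14.1 and 17.5 in parental cells, with no overlap, higher by 0.88 ± 0.11 (adjusted p = 1.75e-07). MRPS22, a small-subunit protein found only in mitochondria, was higher by 0.71 and MRPS30 by 0.67. MRPS22 shares 7.8% of its exon bases with neighbours on the opposite strand, among them COPB2. COPB2 averaged 505 CPM in clone B TIFM and 267 in parental TIFM, and its part in the MRPS22 count was not tested. Lower were MRPS6 (-1.22), MRPL28 (-0.76) and MRPS34 (-0.71), among others. MRPS6 read 63, 104 and 207 CPM in clone B, a spread of more than 3-fold, and all 3 were below the parental TIFM libraries.

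**Figure D5:**
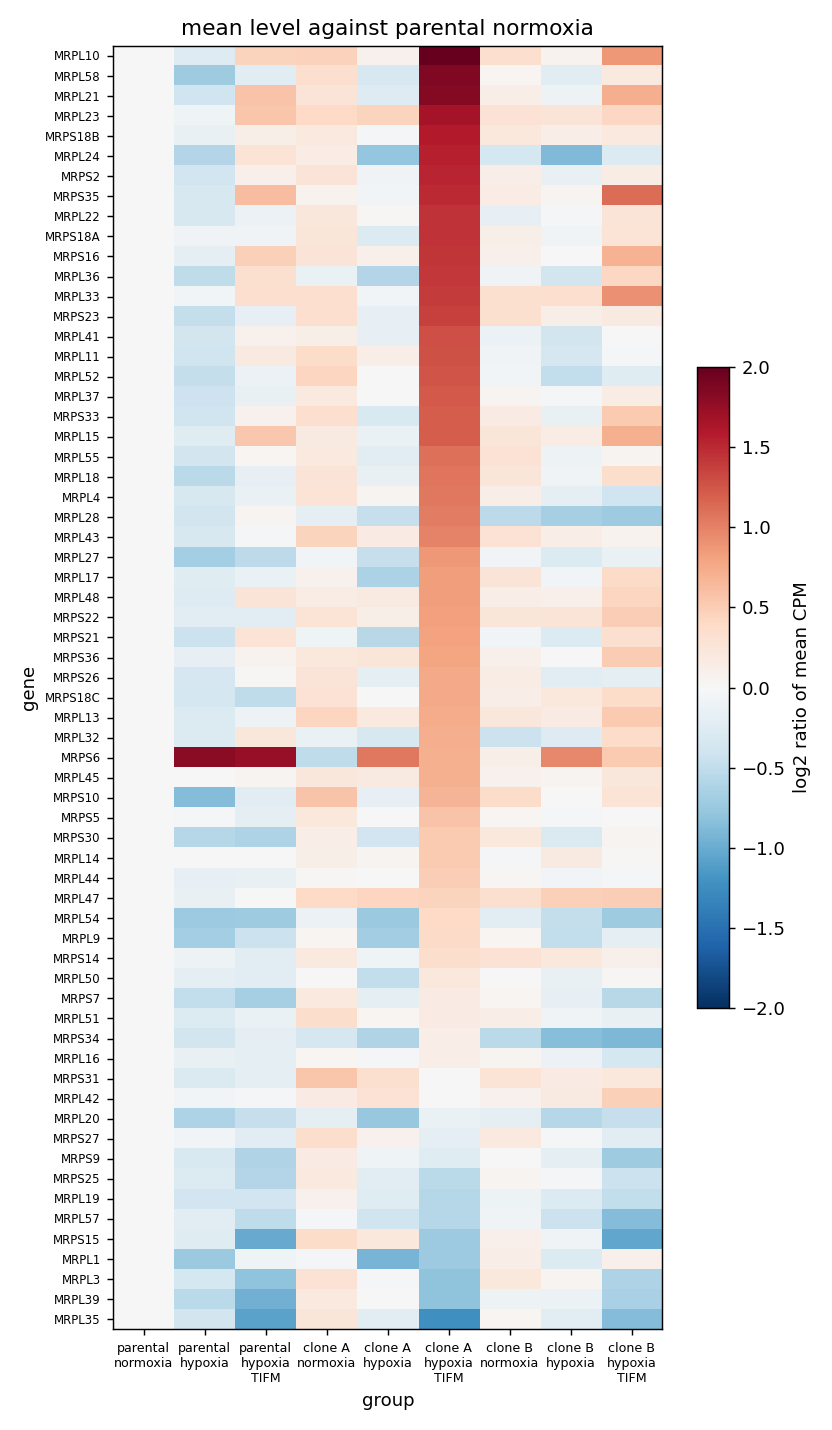
Log2 ratio of the mean CPM of each group to that of parental normoxia for the 64 tested members, sorted by the ratio in clone A in TIFM; red is higher, blue lower, and the colour scale stops at -2 and 2. Columns are the 9 groups, MRPL10, MRPL58 and MRPL21 are the reddest in the clone A TIFM column, and MRPL35 and MRPL3 are blue in all 3 TIFM columns.

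Further members, chosen for their roles in the ribosome, had smaller or mixed responses. MRPL11, a partner of MRPL10 in the stalk, had -0.4 in parental hypoxia without a call and rose by 0.58 in parental TIFM. The exit-tunnel proteins MRPL22 and MRPL23 had estimates of -0.31 and -0.08 in parental hypoxia, and in clone A TIFM they rose by 1.44 and 1.21. MRPL44, a nuclease-fold protein, and MRPL45 had 0.01 and 0.05 in parental TIFM and rose by 0.48 and 0.52 in clone A TIFM. MRPL41 rose by 0.46 in parental and 1.45 in clone A TIFM. MRPS2, MRPS5 and MRPS7, around the mRNA channel and the head, had 0.49 (called), -0.18 and -0.17 in parental TIFM, and rose by 1.58, 0.58 and 0.35 in clone A TIFM. MRPS16 rose by 0.66 in parental TIFM and by 1.32 and 0.68 in clones A and B. MRPS27, an RNA-binding small-subunit protein, did not pass in parental TIFM (-0.14). MRPS36 had 0.23 there and rose by 0.55 and 0.53 in clones A and B.

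Other genes of mitochondrial translation were described from lists by function. Over all genes, 15.4% were called higher and 14.9% lower in parental hypoxia. In TIFM these shares were 21.8% and 20.4% in parental cells, 33% and 34.2% in clone A, and 25.9% and 27.9% in clone B. Several list counts here and below lie near these shares and are not read as results about the lists. Of 5 further mitoribosome subunits, all tested, 2 fell in parental hypoxia (AURKAIP1 by 0.62 and PTCD3 by 0.51) and 2 rose in parental TIFM (DAP3 by 0.64 and CHCHD1 by 0.41). All 5 rose in clone A TIFM, with a median of 1.3, although the AURKAIP1 libraries overlapped. AURKAIP1 read 41.8, 40.9 and 46.1 CPM in clone A hypoxia and 39.7, 72.5 and 87.3 in clone A TIFM. Of 22 tested genes for ribosome assembly and rRNA modification, 5 fell and 0 rose in parental hypoxia, led by the rRNA methyltransferase MRM1 (-1.13) and the GTPase MTG2 (-0.52). In parental TIFM 4 rose and 5 fell, with GTPBP10 at 0.91, MRM3 at 0.55, MTG1 at -1.94 and MRM1 at -0.9. MTG1 was at a low level, reading 1.63, 1.96 and 2.08 CPM in parental hypoxia and 0.389, 0.569 and 0.519 in parental TIFM. In clone A TIFM 15 genes of this list rose and 1 fell.

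Among 13 tested translation factors 1 rose and 3 fell in parental hypoxia. The riser was MTRFR, a rescue factor for stalled ribosomes, at 2.77 ± 0.34; the largest falls were GFM2 (-0.62) and TUFM (-0.47). In parental TIFM MTRFR fell by 2.62 and MTFMT by 1.05, and MRRF rose by 0.54, the only rise among 5 calls. Mitochondrial aminoacyl-tRNA synthetases fell in 7 of 15 tested cases in parental hypoxia, with YARS2 at -0.55 and EARS2 at -0.52, and none rose. In parental TIFM 3 rose and 5 fell, with YARS2 at 0.44, CARS2 at 0.4 and HARS2 at -0.57. Of 10 genes for mitochondrial transcription and replication 2 fell in parental hypoxia, TEFM by 0.48 and TFAM by 0.41. In parental TIFM 3 rose, among them TWNK (0.65) and TFAM (0.52), and POLG and SSBP1 fell by 0.69 and 0.27.

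Regulators of mitochondrial biogenesis include GABPA and GABPB1, which together form the ETS-family factor GABP. Of 10 tested, MYC (0.55) and YY1 (0.31) rose in parental hypoxia and CREB1 fell by 0.56. In parental TIFM MYC rose by 0.75 and GABPB1 by 0.73, with YY1, and GABPA fell by 0.59. In clone A TIFM MYC rose by 2.43, GABPB1 by 1.24 and GABPA fell by 1.1. The GABP genes varied widely between these TIFM libraries, with GABPB1 at 84.5, 55.9 and 36 CPM and GABPA at 45.6, 25.5 and 13. In clone A hypoxia GABPB1 read 18.6, 29.5 and 26.5 CPM and GABPA 56.8, 62.7 and 62. The mRNAs made from the mitochondrial genome, which the ribosome translates, moved differently from the members in clone A TIFM: 9 of 13 fell and 0 rose, with a median of -0.59. In parental hypoxia 2 of the 13 fell, MT-ND2 by 0.92 and MT-ND4L by 0.49, and in parental TIFM MT-ND1 alone rose, by 0.44. Of 75 tested cytosolic ribosomal protein genes 3 rose and 1 fell in parental hypoxia (median 0.05). In TIFM 59 of them rose in the parental line (median 0.66), 63 for clone A (median 1.14) and 42 for clone B (median 0.46), so the members were not alone in rising in TIFM.

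ETS and NRF1 cores were also counted by response, as a description with no test. Genes outside the members were not counted this way, so no link between core and response is read from these counts. Among members lower in parental hypoxia with a RefSeq promoter, 14 of 23 held the ETS core and 4 the NRF1 core, against 11 and 6 of 33 members not called. In clone A hypoxia the ETS core was found in 16 of 25 lower members and in 9 of 31 not called. The parental and clone A lists of lower members share 19 genes, so these counts are not separate observations. In clone B hypoxia the core was found in 3 of 5 lower members and in 22 of 52 not called. Among members higher in parental TIFM 7 of 16 held the ETS core, against 16 of 37 not called. For clone A TIFM this was 18 of 42 against 5 of 10, and for clone B TIFM 7 of 15 against 16 of 35. The printed windows follow no single rule: MRPL58 and MRPS10 hold the ETS core and fell in parental hypoxia, whereas MRPS18A holds it and was not called there.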

How the data were processed

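RNA was measured by polyA RNA-seq in 27 Panc1 libraries, 3 for each of 9 groups assigned from the sample labels. Raw gene-level counts were deposited, made with HISAT2 and featureCounts on GRCh38 per the submitters' processing notes. Tool versions, the annotation and the strand setting were not given in the sources used here. Library totals ran from 26057022 to 38341713 counts (median 31727174). Genes were filtered with edgeR's filterByExpr (minimum count 10, minimum total 15), which kept 13943 of 21487, scaled by TMM and fitted with edgeR 4.0.16 (R 4.3.3) by a robust quasi-likelihood model of all 27 libraries with 1 coefficient per group. Adjusted p-values are Benjamini-Hochberg over all genes tested, with calls at 0.05. Of 18 comparisons, 2 were added after seeing the data (clone A against clone B responses). The fit was tested on simulated counts with the same spread in all groups and with changes in parental hypoxia only. That test does not cover the unequal spread of the groups seen here. Alternatives were DESeq2 1.42.0, its size factors within edgeR, no count filter, only the libraries compared, the replicate number as a block, and leaving out each library.

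The rule for named members took a fixed set of roles, up to 3 called members with the largest log2 change in each direction of each comparison (1 CPM or more on average in either group) and those not tested; of each pathway list it took up to 2 called genes per direction in parental hypoxia and parental TIFM. Other members and pathway genes named beside these were chosen after their values were seen. One pathway gene that the rule would name is not reported here. The members and lists were chosen with earlier results of these data known. Exon overlaps come from GENCODE v29. Same-numbered replicates deviated together in 1 comparison, clone B against parental cells in TIFM (correlations from 0.13 to 0.28, and 6 of 6 libraries best with their own number), where pairing rests on the data alone; the blocked fit called 28 members and the unblocked 25.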

Additional observations from a re-analysis of the deposited data

Results flagged for a closer look

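The TIFM response of 39 members differed between clone A and parental cells by the test of the difference itself, all in the direction of a higher response in clone A, where 38.9% of all genes were called and 19.3% in that direction. The members with the greatest differences were MRPS18A at 1.71, MRPL58 at 1.67 and MRPL24 at 1.48 on the log2 scale. The same test between clone A and clone B called 45 members, all higher in clone A, where 40% of all genes were called and 21.3% in that direction. Both tests use the same clone A libraries, and clone A in TIFM had the widest spread between replicates of the 9 groups (biological coefficient of variation 29.3%).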

How the results depend on the processing

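For clone B against parental cells in normoxia, 4 members higher and 3 lower became 2 and 3 with no filter and 3 and 3 with DESeq2's size factors. Fitting only the libraries compared gave 45 members for hypoxia in parental cells, 25 in clone B, 28 for clone A and 20 for clone B against parental cells in normoxia, 37 for clone B in hypoxia, and 2 (clone A) and 10 (clone B) for differences of the hypoxia response. In the same setting other counts fell: the TIFM response of clone A from 39 to 28 against parental cells and from 45 to 32 against clone B, and clone A against parental cells in TIFM from 53 to 38. With no filter, hypoxia in clone B gave 3 and clone A in normoxia 10. DESeq2's size factors gave 11 for clone A in normoxia and 1 for the clone B hypoxia response, where DESeq2 gave 2. With the replicate block the clone A hypoxia response gave 1. The causes were not tested, except that a fit on fewer libraries estimates the spread from those alone.

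Leaving out single libraries gave 16 to 22 members for hypoxia in parental cells, 16 to 23 in clone A and 1 to 5 in clone B; for TIFM 20 to 27, 52 to 54 and 24 to 29. Clone A against parental cells gave 4 to 11 in normoxia, 11 to 27 in hypoxia and 49 to 54 in TIFM, and clone B 2 to 5, 12 to 20 and 18 to 27. Differences of the hypoxia response gave 0 in clone A, 0 to 1 in clone B (1 without clone B hypoxia replicate 3) and 0 between clones. Those of the TIFM response gave 34 to 50 in clone A, 0 to 1 in clone B (1 without clone B TIFM replicate 3) and 41 to 48 between clones.

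Outside clone B against parental cells in TIFM, same-numbered libraries correlated from -0.23 to 0.41, and 0 to 4 of 6 libraries matched their own number best, so the number was not taken as pairing. With the replicate block the other counts were 26, 30 and 7 for hypoxia and 25, 54 and 29 for TIFM in parental cells, clone A and clone B. Each group had 3 libraries, each clone is 1 line, and 14 members could not be tested.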
